A study of Mus musculus with 32 samples.

Results

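The genes described here are 45 genes of the interferon response and of antigen presentation by MHC class I, chosen by symbol from the 55401 gene identifiers counted in mouse epidermis. Their values were not used to choose them, although earlier results of these data were known. There were 9 genes of presentation (Tap1, Tap2, Tapbp, Psmb8, Psmb9, B2m, H2-K1, H2-D1 and Nlrc5) and 36 antiviral and other interferon-stimulated genes. The 36 were grouped by role into 3 sensors (Ifih1, Ddx58, Zbp1), 6 signal regulators (Irf1, Irf7, Irf9, Stat2, Usp18, Trim25), 18 antiviral effectors (Isg15, Ifit1, Ifit2, Ifit3, Ifit3b, Ifi44, Oas1a, Oas2, Oas3, Oasl1, Oasl2, Mx1, Mx2, Rsad2, Bst2, Ifitm3, Rtp4, Xaf1), 3 genes of the PARP and DTX3L group (Parp9, Parp14, Dtx3l) and 6 interferon-inducible GTPases (Gbp2, Gbp3, Gbp7, Igtp, Irgm1, Iigp1). All 45 reached 1 cpm, the count of a gene scaled to the size of the library, in some mouse and were tested with 15546 genes in all. For 14 of them the mean over all mice was under 2 cpm.

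Interferons are secreted proteins that bind receptors on most cells and act through JAK kinases and factors that include STAT2 and IRF9, which switch on genes by a DNA element called ISRE. The products of these genes sense foreign nucleic acid, block steps of viral replication or raise the display of peptides on MHC class I. For that display, proteasomes cut proteins into peptides, the TAP1/TAP2 transporter carries them into the endoplasmic reticulum, tapasin (Tapbp) holds the transporter to empty class I molecules, and a heavy chain such as H2-K1 or H2-D1 leaves for the cell surface bound to B2m. NLRC5 is the transactivator of class I genes. In skin, keratinocytes respond to interferon and present class I peptides to T cells.

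The 32 mice were hairless animals of a mixed SKH-1/SV129/BL6/J background, aged 10 to 14 weeks, females and males, either wild type or labelled Ppard-/- (the nuclear receptor PPARβ/δ; the allele is not given in the sources used here). The back was exposed to a single UV dose of 120 mJ/cm2, or the mouse was handled without UV as a control. Epidermis was separated from dermis for RNA sequencing, in irradiated mice 24 h after exposure. Control mice are labelled T0, and the time between handling and collection is not given for them in the sources used here. Each of the 8 combinations of sex, genotype and exposure held 4 mice, which gives 8 mice per genotype and exposure with the sexes pooled. Libraries held 22919428 to 40653581 gene counts. A 0 allows up to 0.0738 to 0.131 cpm depending on the library (3 counts, counting error only). Because whole epidermis was sequenced, fewer cells of a type and less RNA per cell cannot be told apart.

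In the check of the targeted gene, control Ppard levels were 87.3 cpm at the lowest, 94.0 at the median and 105 at the highest in wild-type mice, against 70.3, 77.5 and 88.9 in mice labelled Ppard-/-. Irradiated levels were 252, 279 and 326 against 175, 219 and 239. The transcript was thus lower but not absent in the mice labelled Ppard-/-, by 0.26 ± 0.07 (SE) on the log2 scale without UV, where the edgeR quasi-likelihood test gave an adjusted p of 0.156. After UV the fit was -0.42 ± 0.07 (edgeR adjusted p = 0.00114). A count over the whole gene does not check a deletion of part of it.

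The library of the irradiated Ppard-/- female 54F stands apart, and it is included in the values of Ppard-/- mice unless these are said to be without it. The summed level of 6 dermal fibroblast markers was 1982 cpm in 54F, against 6.0 to 30.0 cpm in the other 7 irradiated Ppard-/- mice, and that of 8 neutrophil and monocyte markers was 456 cpm against 59.5 to 183.5 cpm. Of the 8, Lyz2 gave 356 cpm of the 456, and Itgam (30.5 cpm) and Ccr2 (24.3 cpm) were also highest in 54F among irradiated Ppard-/- mice, whereas Cxcr2, Csf3r, Mpo, Trem1 and Ly6g were not. No marker of the fibroblast list was at 0 in any group. The sums of 3 endothelial genes (20.8 against at most 15.8 cpm) and 3 plasmacytoid dendritic cell genes (11.4 against at most 5.63 cpm) were also highest in 54F among these mice. That of 6 keratinocyte genes was lowest, 28640 against at least 34790 cpm. The T cell sum, 106.5 cpm, was near the highest of the others, 105.8 cpm. The Langerhans cell and MHC class II sum, 700 cpm, lay within their range of 274 to 914 cpm. The part of these cells in the values of 54F was not tested.

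Promoter sequences are shown first. Most members were chosen as interferon-stimulated genes, which are switched on by the ISRE, so a high share of ISRE matches is partly built into the choice. RefSeq gave a start for 34 of the 45 members on GRCm38.p6, and the 250 bases before each start were searched on both strands for the ISRE core GAAANNGAAA. This core lay before 15 of 34 members (44.1%) and before 3.46% of 27025 genes. It lay before 1 of 7 presentation genes (14.3%, B2m) and before 14 of 27 antiviral and other interferon-stimulated genes (51.9%). The GAS core TTCNNNGAA, an element bound by STAT dimers, lay before 7 of 34 members (20.6%) and 8.13% of genes, and among presentation genes only before Psmb8. A match is a description of letters and not a bound site, and only exact matches were counted, so the shares depend on the pattern used. The following stretches end at or shortly before a start and run 5′ to 3′ on the stated strand, with every ISRE match in capitals. Tap1 and Psmb9 are transcribed in opposite directions from 1 shared stretch (chr17:34187331-34187555, plus strand), which held no match.
Tap1 and Psmb9: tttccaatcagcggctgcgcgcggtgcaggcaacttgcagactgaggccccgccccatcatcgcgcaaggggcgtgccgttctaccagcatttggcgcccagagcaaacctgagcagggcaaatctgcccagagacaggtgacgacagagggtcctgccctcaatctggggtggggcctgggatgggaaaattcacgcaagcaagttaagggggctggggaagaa
The class I chains are compared by B2m (chr2:122147543-122147662, plus), with 1 match, and H2-K1 (chr17:34000334-34000453, minus) and H2-D1 (chr17:35262974-35263093, plus), with none in these 120 bases.
B2m: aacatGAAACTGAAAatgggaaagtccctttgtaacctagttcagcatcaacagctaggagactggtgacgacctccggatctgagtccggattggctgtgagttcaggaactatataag
H2-K1: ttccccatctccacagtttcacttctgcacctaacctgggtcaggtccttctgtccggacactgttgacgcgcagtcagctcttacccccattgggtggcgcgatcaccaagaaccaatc
H2-D1: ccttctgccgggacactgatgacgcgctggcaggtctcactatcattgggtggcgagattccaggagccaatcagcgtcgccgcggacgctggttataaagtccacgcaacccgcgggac
The antiviral effectors are shown by Isg15 (chr4:156200819-156200938, minus), with 3 overlapping matches, Ifit1 (chr19:34640769-34640888, plus), with 2, Rsad2 (chr12:26456453-26456572, minus), with 1, and Oasl1 (chr5:114923120-114923239, plus), with none in this stretch.
Isg15: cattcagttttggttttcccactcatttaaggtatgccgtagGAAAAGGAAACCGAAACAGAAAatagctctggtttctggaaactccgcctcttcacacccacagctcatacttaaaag
Ifit1: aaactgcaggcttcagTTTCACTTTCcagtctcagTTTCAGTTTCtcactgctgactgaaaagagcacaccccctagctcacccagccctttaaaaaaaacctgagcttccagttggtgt
Rsad2: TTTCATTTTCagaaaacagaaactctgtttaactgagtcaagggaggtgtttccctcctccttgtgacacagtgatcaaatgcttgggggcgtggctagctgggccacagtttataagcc
Oasl1: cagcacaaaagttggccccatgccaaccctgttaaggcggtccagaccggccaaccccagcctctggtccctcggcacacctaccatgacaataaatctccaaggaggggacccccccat

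In wild-type mice the response of these genes to UV at 24 h ran in both directions: 9 of 45 members rose, 21 fell and 15 did not pass the edgeR test at an adjusted p of 0.05. UV changed 71% of all genes tested, 34.5% higher and 36.5% lower, so the number of members called is near the background. The median change of the members was -0.52 on the log2 scale, against -0.01 over all genes. In Ppard-/- mice 14 members rose, 16 fell and 15 did not pass, against 70.8% of all genes called (37.3% higher, 33.5% lower), with medians of -0.01 for the members and 0.09 for all genes. Without 54F, 43 members remained above the filter, of which 9 were higher and 18 lower, against 37.6% and 34.5% of all genes, and the median of the members was -0.36. The same 15 members fell in both genotypes (Tap1, Tap2, Tapbp, Psmb9, Nlrc5, Ifih1, Irf7, Irf9, Stat2, Trim25, Oas3, Mx2, Parp9, Dtx3l and Igtp), and the same 9 rose in both (B2m, H2-K1, H2-D1, Zbp1, Irf1, Oasl1, Rsad2, Bst2 and Ifitm3). With 71% and 70.8% of all genes called, many shared calls are to be found in any list. The share of all genes called alike in both genotypes is not given here, so this agreement is not particular to the members. In wild-type mice all 8 irradiated values lay apart from all 8 control values for 19 of 45 members, 2 above and 17 below, against 43.4% of all genes. In Ppard-/- mice 9 members lay apart, 3 above and 6 below, against 35.1% of all genes, and without 54F 13 lay apart, against 38.7% of the genes tested without it.

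**Figure D1:**
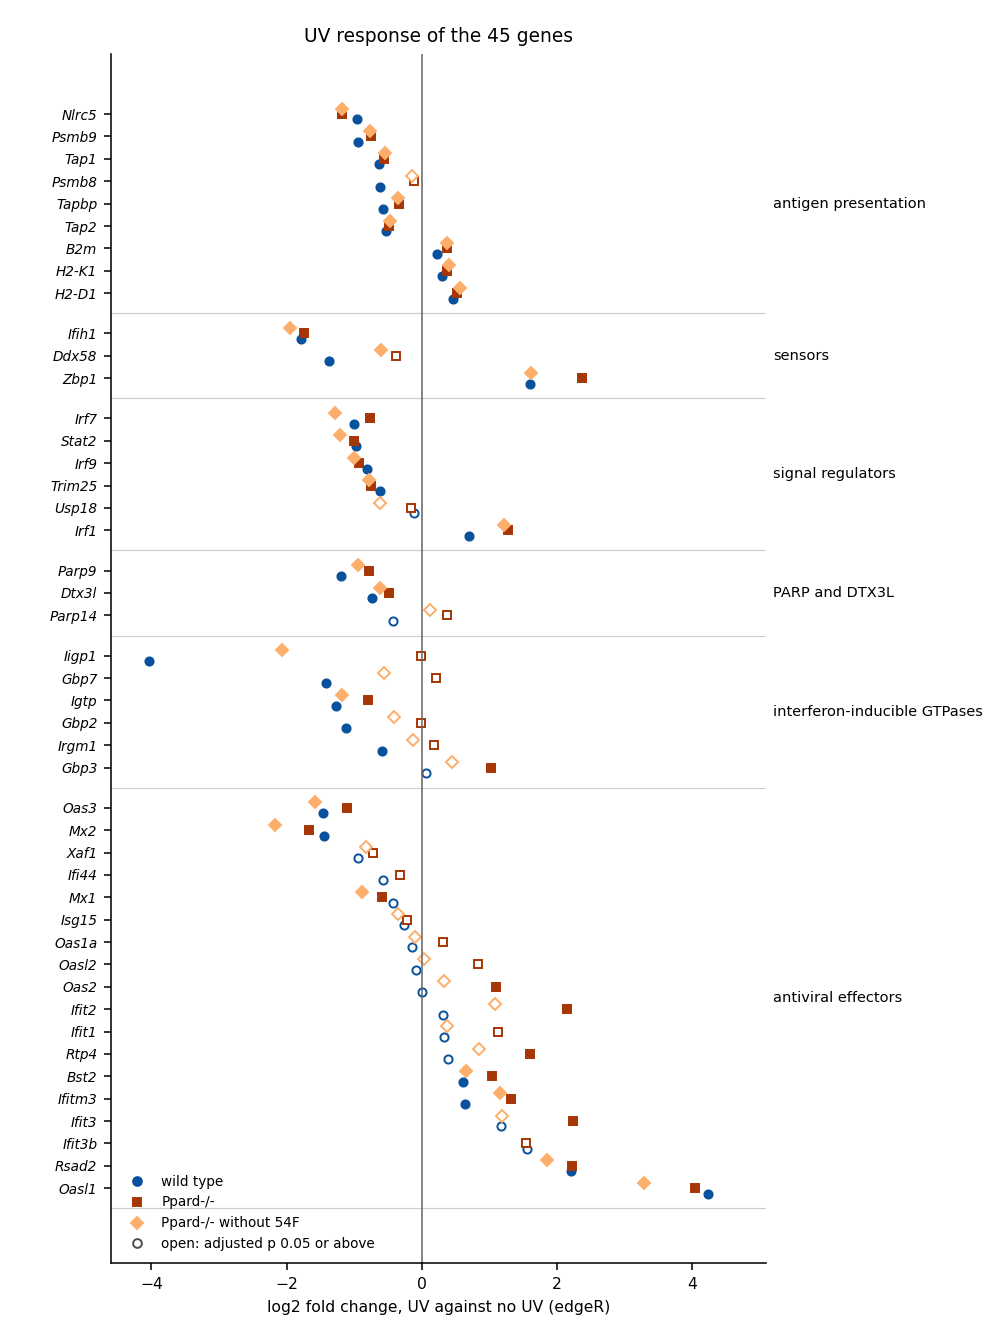
Log2 change after UV of each of the 45 members, by role, in wild-type and Ppard-/- mice (edgeR fit, 8 irradiated against 8 control mice per genotype), with the Ppard-/- fit without 54F shown separately. Oasl1 rises most in both genotypes, the genes of peptide supply and Nlrc5 lie below 0, and several antiviral genes of the Ppard-/- mice move toward 0 when 54F is left out.

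In wild-type mice Psmb8, Psmb9, Tap1, Tap2, Tapbp and Nlrc5 fell after UV and the class I chains H2-K1, H2-D1 and B2m rose. The same held in Ppard-/- mice except for Psmb8, which did not pass there. This split of the 9 genes into 6 and 3 was made after their values were seen. The level of Nlrc5, the class I transactivator (chromosome 8), ran from 241 cpm at the lowest through 286 at the median to 381 at the highest in wild-type controls, and from 128 through 154 to 172 after UV. The values in Ppard-/- mice were 233, 296 and 345 without and 96.5, 129 and 159.5 with UV. The groups did not overlap in either genotype. Nlrc5 fell 1.93-fold in wild-type mice (log2 change -0.95 ± 0.10 SE, edgeR adjusted p = 3.19e-09) and 2.26-fold in Ppard-/- mice (-1.18 ± 0.10, adjusted p = 5.67e-11).

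Psmb9, a catalytic subunit of the immunoproteasome, was at 26.5, 32.2 and 39.1 cpm (lowest, median, highest) in wild-type controls and at 12.6, 17.3 and 20.6 cpm after UV. Its values in Ppard-/- mice were 19.6, 25.9 and 34.7 cpm and at 9.40, 17.3 and 20.3 cpm, so that the groups overlapped slightly there only. The value of 20.3 cpm is that of 54F, and without 54F the groups did not overlap. Psmb9 fell 1.93-fold in wild-type mice (edgeR adjusted p = 1.87e-08) and 1.68-fold in Ppard-/- mice (adjusted p = 1.05e-06). Psmb8, the second immunoproteasome subunit, was at 30.8, 38.2 and 44.5 cpm in wild-type controls and at 18.0, 23.7 and 29.4 cpm after UV, with no overlap, and fell by 0.62 ± 0.13 on the log2 scale (adjusted p = 0.000176). Its Ppard-/- values were 17.6, 28.7 and 38.5 cpm without and 13.9, 27.9 and 36.6 cpm with UV, which overlapped widely, and the change of -0.11 ± 0.13 did not pass (adjusted p = 0.463). The difference between these changes, 0.51 ± 0.19, did not pass either (adjusted p = 0.147). Psmb9 and Tap1 overlap at their 5′ ends on opposite strands, and the strand setting of the counting is not given in the sources used here.

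Tap1 and Tap2, the transporter subunits, and Tapbp fell in both genotypes. Tap1 was at 158, 167 and 217 cpm in wild-type controls and at 87.9, 115 and 134 cpm after UV, a 1.55-fold fall (edgeR adjusted p = 3.47e-08). The Ppard-/- mice had 136, 149.9 and 169 cpm and at 82.4, 103 and 114 cpm, a 1.47-fold fall (adjusted p = 2.87e-07). Neither genotype showed any overlap. Tap2, the other transporter subunit, likewise separated the groups and fell by 0.52 ± 0.06 and 0.49 ± 0.06 on the log2 scale. Tapbp, which encodes tapasin, fell by 0.56 ± 0.07 and 0.34 ± 0.07. Its highest irradiated value in Ppard-/- mice, 112 cpm in 54F, lay above the lowest control value, 98.8 cpm. Without 54F these groups did not overlap.

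The class I chains were the most abundant members per transcript length and moved the other way. B2m had a mean level of 1128 cpm per kb of exon over all mice, H2-K1 569 and H2-D1 518, against 24.6 for Tap1 and 6.24 for Psmb9. H2-D1 was at 1013, 1127 and 1170.0 cpm in wild-type controls and at 1177, 1542 and 1899 cpm after UV, and in Ppard-/- mice at 1028, 1089 and 1144 cpm and at 1289, 1584 and 1817 cpm. Every irradiated mouse lay above every control mouse of its genotype. H2-D1 rose 1.38-fold in wild-type mice (edgeR adjusted p = 3.58e-06) and 1.44-fold in Ppard-/- mice (adjusted p = 6.13e-07). H2-K1 was at 1399, 1503 and 1693 cpm in wild-type controls and at 1361, 1865 and 2324 cpm after UV, and at 1345, 1431 and 1543 cpm and at 1470.0, 1880.0 and 2180.0 cpm in Ppard-/- mice. The groups overlapped, and H2-K1 rose by 0.30 ± 0.09 and 0.37 ± 0.09 on the log2 scale (edgeR adjusted p = 0.00386 and 0.000521). B2m rose by 0.23 ± 0.08 (adjusted p = 0.0181) and 0.37 ± 0.08 (adjusted p = 0.000289), with overlapping groups in both genotypes. Without 54F the changes in Ppard-/- mice were 0.56 for H2-D1, 0.41 for H2-K1 and 0.37 for B2m, and -1.18 for Nlrc5, -0.76 for Psmb9, -0.14 for Psmb8, -0.54 for Tap1, -0.47 for Tap2 and -0.36 for Tapbp, and again only that of Psmb8 did not pass. H2-K1 and H2-D1 share near-identical stretches with other class I genes and reads that aligned in more than 1 place were not counted, so their counts are uncertain.

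**Figure D2:**
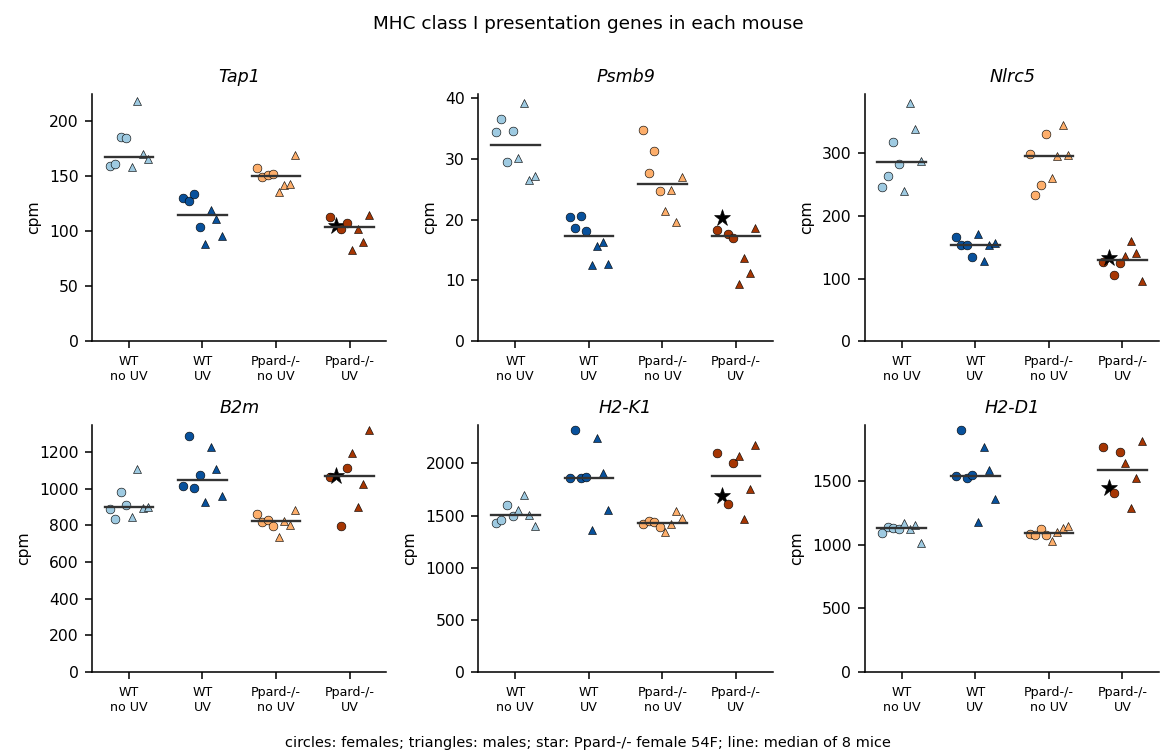
Level in each of the 32 mice, in cpm on a linear axis, of Tap1, Psmb9, Nlrc5, B2m, H2-K1 and H2-D1, by genotype and exposure. Nlrc5 and Tap1 lie lower in all irradiated mice than in any control of the same genotype, and H2-D1 lies higher.

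Other genes of the same route, taken from a list of 14, did not share 1 direction: 5 rose, 4 fell and 5 did not pass in wild-type mice, and 5 rose and 3 fell in Ppard-/- mice (6 and 4 without 54F). With all mice, 64.3% and 57.1% were called, against 71% and 70.8% of all genes tested. Those that rose in wild-type mice included Calr (log2 change 0.90), Canx (0.41) and Pdia3 (0.27), which fold and load class I in the endoplasmic reticulum, and Psmb10 (0.41), the third immunoproteasome subunit. Those that fell included Erap1 (-0.50), which trims peptides, Tapbpl (-0.35), a relative of tapasin, and the nonclassical heavy chains H2-T23 (-0.53) and H2-M3 (-1.11). The constitutive proteasome subunits that are replaced in the immunoproteasome rose in both genotypes, 3 of 3, with log2 changes of 0.98 and 0.84 for Psmb5, 1.09 and 1.04 for Psmb6 and 0.58 and 0.46 for Psmb7.

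Among the sensors, both cytosolic RNA sensors were lower after UV in wild-type mice and Zbp1 was higher. Ifih1, which encodes the long double-stranded RNA sensor MDA5, was at 28.1, 39.3 and 55.5 cpm in wild-type controls and at 8.85, 11.0 and 14.9 cpm after UV, and in Ppard-/- mice at 27.8, 35.9 and 46.3 cpm and at 6.97, 9.54 and 20.8 cpm. The groups did not overlap, and the highest irradiated value is that of 54F. Ifih1 fell 3.46-fold in wild-type mice (edgeR adjusted p = 1.44e-09) and 3.33-fold in Ppard-/- mice (adjusted p = 2.74e-09), or 3.84-fold without 54F.

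Ddx58, which encodes the 5′-triphosphate RNA sensor RIG-I, was at 8.56, 12.0 and 16.4 cpm in wild-type controls and at 2.89, 4.04 and 7.22 cpm after UV, with no overlap, and fell 2.60-fold (edgeR adjusted p = 1.75e-06). Ddx58 in Ppard-/- mice was at 5.75, 9.01 and 12.4 cpm and at 3.73, 5.72 and 19.9 cpm, and the change of -0.37 ± 0.21 on the log2 scale did not pass (adjusted p = 0.112). Without 54F the irradiated values ended at 9.74 cpm and the change was -0.60 ± 0.18 (adjusted p = 0.0041). Zbp1, a sensor of Z-form nucleic acid, was at 0.190, 0.294 and 0.912 cpm in wild-type controls and at 0.654, 1.17 and 1.98 cpm after UV. It rose by 1.61 ± 0.50 in wild-type mice (adjusted p = 0.00531) and by 2.37 ± 0.50 in Ppard-/- mice (adjusted p = 0.000118), or 1.62 without 54F. The control and irradiated groups overlapped in both genotypes.

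Other genes of nucleic acid sensing were 3 higher and 3 lower of 11 tested in wild-type mice and 4 higher and 3 lower in Ppard-/- mice. Thus 54.5% and 63.6% were called, against 71% and 70.8% of all genes tested. Mavs, the adaptor of both RNA sensors, fell by 0.87 and 0.86 on the log2 scale, Cgas, the DNA sensor, by 0.74 and 0.92, and Tlr3, an endosomal RNA receptor, by 0.68 and 0.55. Tlr7 and Tlr9, the endosomal receptors of single-stranded RNA and CpG DNA, rose by 1.67 and 1.11 in wild-type mice and by 3.40 and 2.10 in Ppard-/- mice. Both were low in controls, at most 0.468 cpm for Tlr7 and 0.860 cpm for Tlr9. Sting1, the adaptor of Cgas, had a change of 0.18 that did not pass in wild-type mice (edgeR adjusted p = 0.57) and rose by 1.08 in Ppard-/- mice. Without 54F the rises in Ppard-/- mice were 2.60 for Tlr7, 1.77 for Tlr9 and 0.62 for Sting1.

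Of the signal regulators, Irf9, Stat2, Irf7 and Trim25 fell in both genotypes, Irf1 rose in both and Usp18 passed in neither. Stat2, which encodes a subunit, with IRF9, of the factor that binds the ISRE, was at 30.9, 41.9 and 49.7 cpm in wild-type controls and at 15.7, 19.9 and 26.0 cpm after UV, with no overlap, and fell 1.96-fold (edgeR adjusted p = 7.47e-06). Stat2 in Ppard-/- mice was at 28.8, 35.6 and 51.2 cpm and at 12.6, 16.6 and 38.5 cpm and fell 2.00-fold (adjusted p = 5.23e-06). Without 54F the irradiated values ended at 18.2 cpm, below every control, and the fall was 2.32-fold. Irf9, the DNA-binding subunit of the same factor, was at 61.9, 76.3 and 90.5 cpm in wild-type controls and at 37.8, 42.7 and 49.6 cpm after UV, and at 64.3, 68.1 and 95.8 cpm and at 28.3, 37.2 and 54.8 cpm in Ppard-/- mice. Irradiated and control mice did not overlap in either genotype, and Irf9 fell by 0.81 ± 0.10 and 0.92 ± 0.10 on the log2 scale, the latter 1.00 without 54F.

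Irf7, the regulator that amplifies type I interferon production, was at 10.8, 18.9 and 28.4 cpm in wild-type controls and at 6.83, 9.6 and 10.7 cpm after UV, without overlap, and it fell 2.01-fold (edgeR adjusted p = 0.00533). Ppard-/- controls ran from 10.9 through 20 to 48.4 cpm and the irradiated mice from 6.07 through 10.4 to 43.3 cpm, so the groups overlapped and the fall of 0.77 ± 0.31 was smaller than the 1.28 fitted without 54F. Trim25, a ubiquitin ligase of the RIG-I pathway, was at 113, 142 and 176 cpm in wild-type controls and at 81.2, 90.4 and 105 cpm after UV, and at 119, 148 and 162 cpm and at 70.4, 86.9 and 105 cpm in Ppard-/- mice. It fell by 0.62 ± 0.08 and 0.75 ± 0.08 (0.78 without 54F) with no overlap in either genotype. Usp18, the protease that removes ISG15 and damps signalling, had changes of -0.11 and -0.16, the latter -0.61 without 54F, and none of these passed. Irf1, a factor induced by interferon gamma and by stress, was at 7.52, 11.6 and 18.8 cpm in wild-type controls and at 12.8, 20.5 and 23.9 cpm after UV, with overlap. It rose 1.63-fold in wild-type mice (adjusted p = 0.000478) and 2.43-fold in Ppard-/- mice (adjusted p = 1.52e-07; 2.34-fold without 54F), and the difference of 0.57 ± 0.24 between these log2 changes did not pass (adjusted p = 0.183).

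The interferons themselves were almost without reads. The 9 ligand genes listed had 39 counts in all 32 mice together, of which Ifng had 20, Ifnk 9 and Ifne 6, and Ifnb1, Ifna2, Ifna4 and Ifna5 had 0. None reached the filter, so no ligand was tested. Of 6 receptor genes, Ifnar1 (log2 change 0.33 in wild-type and 0.53 in Ppard-/- mice) and Ifnar2 (1.02 and 1.93), the type I receptor chains, rose, and Ifngr2 (-0.29 and -0.35) and the type III receptor chain Ifnlr1 (-1.03 and -1.22) fell. Without 54F, Ifnar2 rose by 1.73 in Ppard-/- mice, and Il10rb, the chain that the type III receptor shares with that of IL-10, fell by 0.30 there. Of 10 signalling and feedback genes, 4 rose and 4 fell in wild-type mice and 5 and 5 in Ppard-/- mice. Thus 80% and 100% were called, against 71% and 70.8% of all genes tested. The inhibitors Socs1 (2.42 and 2.21), Socs3 (2.14 and 1.72) and Ptpn2 (0.85 and 0.85) rose, as did Jak2 (0.81 and 0.88). Among those that fell were Jak1 (-0.62 and -0.76), Tyk2 (-0.52 and -0.46) and Irf2 (-0.49 and -0.47).

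The 18 antiviral effectors divided in wild-type mice into 4 that rose (Oasl1, Rsad2, Bst2, Ifitm3), 2 that fell (Oas3, Mx2) and 12 that did not pass, so that 33.3% were called where 71% of all genes were. Oasl1, an OAS-like protein that restrains translation of Irf7, was at 0, 0.0915 and 0.188 cpm in wild-type controls (19 reads in 8 mice) and at 0.854, 1.32 and 4.03 cpm after UV (477 reads). The Ppard-/- mice had 0, 0.115 and 0.248 cpm (25 reads) and at 0.366, 1.19 and 12.5 cpm (641 reads). All irradiated mice lay above all controls. Oasl1 rose by 4.24 ± 0.60 on the log2 scale in wild-type mice (edgeR adjusted p = 3.99e-07) and by 4.05 ± 0.58 in Ppard-/- mice (adjusted p = 5.94e-07), or 3.29 ± 0.47 without 54F, the largest rise of the 45 members in each of the 3 fits.

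Rsad2, which encodes viperin, was at 0.113, 0.413 and 0.704 cpm in wild-type controls and at 0.348, 1.72 and 4.07 cpm after UV, with overlap, and rose 4.64-fold (edgeR adjusted p = 0.000743). It rose by 2.23 ± 0.54 on the log2 scale in Ppard-/- mice, or 1.86 without 54F. Ifitm3, a membrane protein that blocks entry of enveloped viruses, had the highest level of the antiviral effectors per length, 80.6 cpm per kb. It was at 23.1, 38.9 and 61.8 cpm in wild-type controls and at 43.8, 65.1 and 73.7 cpm after UV, with overlap, and rose 1.56-fold (adjusted p = 0.00526), whereas in Ppard-/- mice it was at 16.8, 33.5 and 48.2 cpm and at 54.5, 74.7 and 156 cpm, without overlap, and rose 2.5-fold (adjusted p = 1.26e-06; 2.24-fold without 54F). The difference of 0.69 ± 0.28 in log2 change did not pass (adjusted p = 0.177). Bst2, which encodes tetherin, rose by 0.62 ± 0.28 in wild-type mice (adjusted p = 0.0474) and by 1.04 ± 0.28 in Ppard-/- mice, or 0.65 without 54F (adjusted p = 0.00903).

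Oas3, a 2′-5′ oligoadenylate synthetase that activates RNase L, was at 1.48, 2.73 and 4.49 cpm in wild-type controls and at 0.443, 1.00 and 1.67 cpm after UV, with slight overlap, and fell 2.75-fold (edgeR adjusted p = 0.00291). Mx2, a dynamin-like antiviral GTPase, was at 1.17, 2.08 and 2.58 cpm and at 0.341, 0.766 and 1.09 cpm, without overlap, and fell 2.72-fold (adjusted p = 0.000412). In Ppard-/- mice both fell as well, Oas3 by 1.10 ± 0.42 and Mx2 by 1.66 ± 0.34 on the log2 scale, and Mx1 fell by 0.58 ± 0.22. These falls were 1.58, 2.17 and 0.88 without 54F. Isg15, the ubiquitin-like modifier whose promoter stretch above holds 3 matches, was at 1.75, 3.55 and 7.30 cpm in wild-type controls and at 1.52, 3.71 and 6.47 cpm after UV. These ranges overlapped almost wholly and its change of -0.26 ± 0.42 did not pass (adjusted p = 0.601). Xaf1, a proapoptotic interferon target, was at 3.36, 7.77 and 9.16 cpm and at 1.61, 3.48 and 7.02 cpm, with overlap, and its change of -0.94 ± 0.44 did not pass (adjusted p = 0.0567). The changes of Ifit1 (0.33), Ifit3b (1.57), Ifi44 (-0.57), Oas1a (-0.14) and Oasl2 (-0.09) in wild-type mice did not pass either, nor did those in Ppard-/- mice, which were 1.13, 1.55, -0.31, 0.32 and 0.83. Without 54F those of Ifit1, Oas1a and Oasl2 were 0.38, -0.09 and 0.04, and Ifit3b and Ifi44 were under the filter.

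In the mice labelled Ppard-/- the effectors Ifit2, Ifit3, Oas2 and Rtp4, together with the GTPase Gbp3, also passed as higher, and these 5 calls rested on 54F. Oas2, another oligoadenylate synthetase, was at 0.616, 2.19 and 4.67 cpm in Ppard-/- controls and at 0.685, 2.69 and 39.7 cpm after UV, with the highest value in 54F. Its change was 1.11 ± 0.45 (edgeR adjusted p = 0.0299) with and 0.34 without 54F (adjusted p = 0.405). Ifit2, which binds viral RNA, had a change of 2.15 (adjusted p = 0.00326) with and 1.09 without 54F (adjusted p = 0.0579), Ifit3 had 2.25 and 1.19, Rtp4 1.61 and 0.86, and Gbp3 1.02 and 0.45. Ifit3 and Ifit3b are near-identical copies, as are members of the Oas1 family, and their counts are uncertain.

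**Figure D3:**
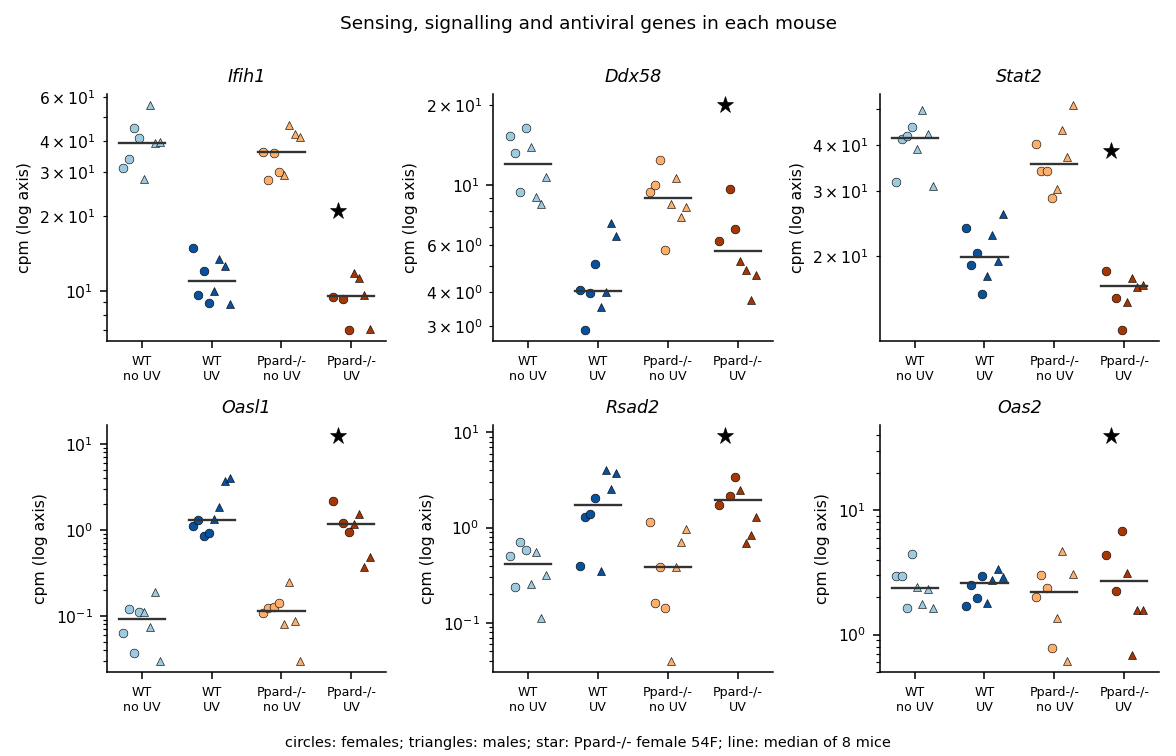
Level in each of the 32 mice, in cpm on a log axis, of antiviral and other interferon-stimulated members, by genotype and exposure, with values of 0 drawn at 0.03 cpm. Irradiated mice lie lower for Ifih1 and higher for Oasl1 in both genotypes, and the mouse 54F lies above the other irradiated Ppard-/- mice for most genes.

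Of the PARP and DTX3L group, Parp9 and Dtx3l, partners in a complex that modifies histones and supports interferon signalling, fell in both genotypes. Parp9 was at 12.1, 18.8 and 25.9 cpm in wild-type controls and at 3.70, 8.08 and 11.4 cpm after UV, without overlap, and fell 2.29-fold (edgeR adjusted p = 8.49e-05). The Ppard-/- groups overlapped, and Parp9 fell 1.72-fold there (adjusted p = 0.00525; 1.91-fold without 54F). Dtx3l, at 13.8, 16.4 and 22.2 cpm in wild-type controls and at 9.10, 9.76 and 11.9 cpm after UV, also separated the groups there and fell by 0.74 ± 0.18 on the log2 scale, against 0.48 ± 0.18 in Ppard-/- mice (0.61 without 54F). The 5′ ends of these genes overlap on opposite strands. Parp14, an ADP-ribosyltransferase, was at 11.5, 14.7 and 16.9 cpm and at 6.04, 11.8 and 14.5 cpm in wild-type mice, and at 4.35, 11.1 and 16.5 cpm and at 6.75, 12.7 and 47.5 cpm in Ppard-/- mice. These groups overlapped, and it had changes of -0.42 ± 0.24 and 0.38 ± 0.24 that did not pass, the latter 0.12 without 54F.

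Of the interferon-inducible GTPases, which act on the vacuoles of intracellular pathogens, 5 of 6 fell in wild-type mice and Gbp3 did not pass. The list is short, and 71% of all genes tested were called there, with 36.5% lower. Iigp1 was at 0.328, 0.746 and 1.8 cpm in wild-type controls (193 reads) and at 0, 0.0352 and 0.254 cpm after UV (18 reads, with 3 mice at 0). No irradiated mouse reached the lowest control, and Iigp1 fell by 4.04 ± 1.06 on the log2 scale (edgeR adjusted p = 0.00128). Its values in Ppard-/- mice were 0, 0.474 and 2.17 cpm and at 0, 0.183 and 11.5 cpm, of which 11.5 is 54F, and the change of -0.01 did not pass (edgeR adjusted p = 0.989). Without 54F the irradiated mice ended at 0.350 cpm and the change was -2.06 ± 0.75 (adjusted p = 0.0162).

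Igtp was at 3.15, 4.10 and 9.98 cpm in wild-type controls and at 1.30, 2.14 and 2.59 cpm after UV, without overlap, and fell 2.40-fold (edgeR adjusted p = 0.00248). It fell by 0.79 ± 0.35 on the log2 scale in Ppard-/- mice (adjusted p = 0.0489), or 1.17 without 54F. Gbp7 was at 1.30, 2.04 and 2.87 cpm in wild-type controls and at 0.346, 0.797 and 1.47 cpm after UV, and Irgm1 at 4.37, 5.76 and 7.07 cpm and at 2.12, 4.12 and 4.90 cpm, with overlap for both. Gbp7 fell by 1.41 ± 0.47, Gbp2 by 1.12 ± 0.36 and Irgm1 by 0.58 ± 0.26 in wild-type mice. In Ppard-/- mice their changes of 0.21, -0.01 and 0.18 did not pass, nor did those without 54F, which were -0.56, -0.41 and -0.13. These families hold close paralogs whose counts are uncertain.

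A further 19 interferon-stimulated genes from a separate list also went both ways: 5 rose and 6 fell in wild-type mice, and 9 rose and 4 fell in Ppard-/- mice (7 and 4 of 17 without 54F). With all mice, 57.9% and 68.4% were called, against 71% and 70.8% of all genes tested. Ifitm1, a relative of Ifitm3, rose by 3.08 and 3.57 on the log2 scale, Helz2, a helicase, by 1.88 and 1.93, and Cd274, which encodes PD-L1, by 1.07 and 0.95. Levels of Ifitm1 were low, at most 0.584 cpm in any control. Cxcl9, a chemokine of T cells, fell by 2.21 and 1.38, and Ifi27 by 0.85 and 0.71.

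The mean level of a set within each mouse gives the size of these changes by role. The mean log2 cpm of the 6 genes of peptide supply, TAP and Nlrc5 was 6.48 ± 0.12 (SD, n = 8) in wild-type controls and 5.77 ± 0.15 after UV, and 6.29 ± 0.12 and 5.72 ± 0.19 in Ppard-/- mice. That of H2-K1, H2-D1 and B2m was 10.18 ± 0.08 and 10.50 ± 0.21 in wild-type mice and 10.09 ± 0.06 and 10.50 ± 0.19 in Ppard-/- mice. For the 36 antiviral and other interferon-stimulated genes it was 1.61 ± 0.24 and 1.34 ± 0.39 in wild-type mice, which is within the spread, and 1.37 ± 0.56 and 1.61 ± 0.99 in Ppard-/- mice, or 1.28 ± 0.41 after UV without 54F.

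**Figure D4:**
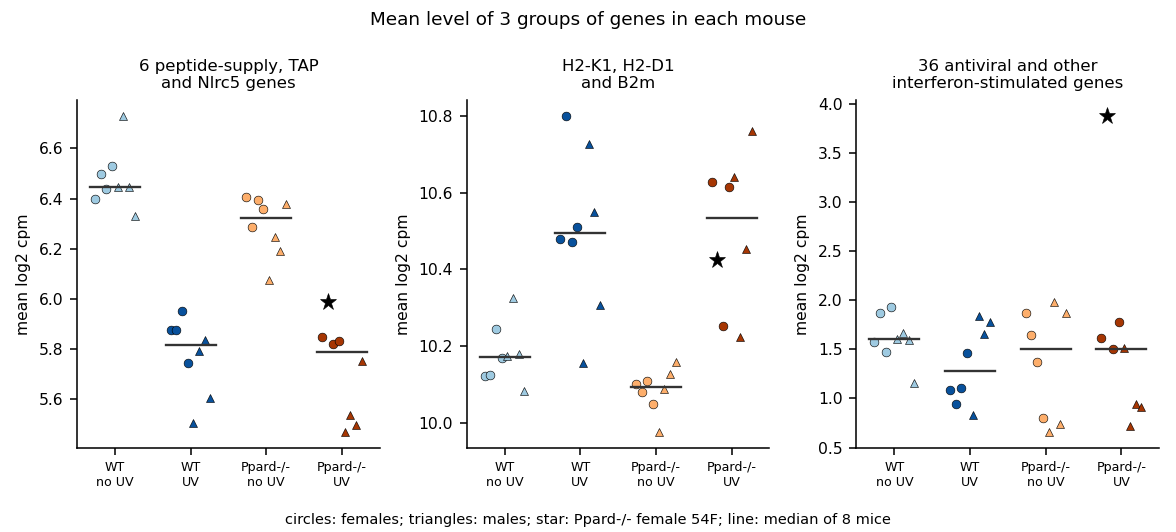
Mean log2 cpm of each set of members in each mouse, by genotype and exposure, with a line at the median of each group of 8 mice. The peptide supply set lies lower after UV and the class I chains higher at the median in both genotypes, a split made after their values were seen. The antiviral set overlaps between control and irradiated mice.

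No difference between the genotypes passed for any member. The UV responses of the genotypes differed for 0 of 45 members by edgeR, against 0.765% of all genes, with 11 members (against 19.6% of all genes) at an unadjusted p under 0.05, 2 called by DESeq2 (Ddx58 and Iigp1) and 0 by limma-trend. The smallest edgeR adjusted p was 0.0862 for Ddx58, whose response was higher in Ppard-/- mice by 1.00 ± 0.30 on the log2 scale. Of the 45 differences 36 were above 0, with a median of 0.26, and without 54F the median was 0.06 and 3 of 43 members were at an unadjusted p under 0.05, against 19.1% of all genes. Ddx58 then differed by 0.73 ± 0.25 (adjusted p = 0.127).

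Without UV, 0 of 45 members differed between the genotypes by edgeR, DESeq2 or limma-trend, against 0.206% of all genes, and 6 were at an unadjusted p under 0.05, against 8.52% of all genes. All 9 presentation genes had a lower fitted level in Ppard-/- mice, with a median of -0.08, but none passed, and the smallest adjusted p was that of Psmb8 (-0.45 ± 0.13, edgeR adjusted p = 0.25). After UV, 0 of 45 members differed by edgeR, against 3.31% of all genes, with 9 (against 20.1% of all genes) at an unadjusted p under 0.05, 1 called by DESeq2 (Iigp1) and 0 by limma-trend. Iigp1 was higher in irradiated Ppard-/- mice by 3.68 ± 1.10 (edgeR adjusted p = 0.0598), a value that was 1.60 without 54F (adjusted p = 0.354).

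Ppard lies on chromosome 17, at 28232700 to 28301474 on GRCm38, and 7 of the 9 presentation genes start within 5.68 to 7.03 Mb of it. Genes within 10 Mb of the start of Ppard on this chromosome were called between genotypes in a larger share than the others, 10 of 398 (2.51%) against 22 of 15148 (0.145%) without UV and 37 (9.30%) against 477 (3.15%) after UV. Linked strain differences beside the Ppard locus and the Ppard genotype cannot be told apart for Tap1, Tap2, Tapbp, Psmb8, Psmb9, H2-K1 and H2-D1.

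The sexes were also fitted separately. UV moved 5 members up and 15 down in wild-type males, where 60.9% of all genes were called, and 5 up and 20 down in wild-type females (61.3%). In Ppard-/- males 6 rose and 17 fell (61.7%), and in Ppard-/- females 18 rose and 8 fell (60.7%). The last of these counts rested on 54F, since without it 9 were higher and 11 lower of 43. Tap1 fell by 0.78 ± 0.11 on the log2 scale in wild-type males and by 0.47 ± 0.11 in wild-type females, and Nlrc5 by 1.03 ± 0.14 and 0.87 ± 0.14. The test of the difference between the sexes called 0 members in wild-type mice and 0 in Ppard-/- mice by edgeR, DESeq2 and limma-trend, against 0.0% of all genes by edgeR in both genotypes (419 genes in wild-type and 1482 in Ppard-/- mice at an unadjusted p under 0.05, and 3 and 35 called by DESeq2). At an unadjusted p under 0.05 there were 0 members in wild-type mice, against 2.7% of all genes, and 16 in Ppard-/- mice, against 9.53%. Without 54F there were 5 of 43 in Ppard-/- mice, against 6.05%.

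The mouse 54F had the highest level of all 32 mice for 23 of the 34 antiviral and other interferon-stimulated members that passed the filter without it (67.6%) and for 0 of the 9 presentation genes, against 9.41% of the 15157 genes that passed without it. For presentation genes that fell after UV, controls had the higher levels, so the 0 of 9 partly follows from the direction of their change. Ifi44 and Ifit3b passed the filter only through 54F and are left out. For the 34 genes its level divided by the median of the other 7 irradiated Ppard-/- mice had a median of 4.87 and ran from 1.22 to 69.1. Among the most raised were Ifit3, at 9.85 cpm against at most 1.62 cpm in the other 31 mice, Iigp1, at 11.5 against 2.17 cpm, and Oasl2, at 42.0 against 6.87 cpm. For the presentation genes the same ratio had a median of 1.05 and ran from 0.84 to 1.39. Psmb8, Tapbp and Psmb9, at 36.6, 112 and 20.3 cpm, were higher in 54F than in any of these 7 mice (at most 30.75, 98.6 and 18.6 cpm). Most of the 34 antiviral and other interferon-stimulated genes were thus high in this mouse, while Tap1, Nlrc5 and the class I chains lay near the other 7. The markers of other cells given for 54F above moved with it, and their part was not tested.

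**Figure D5:**
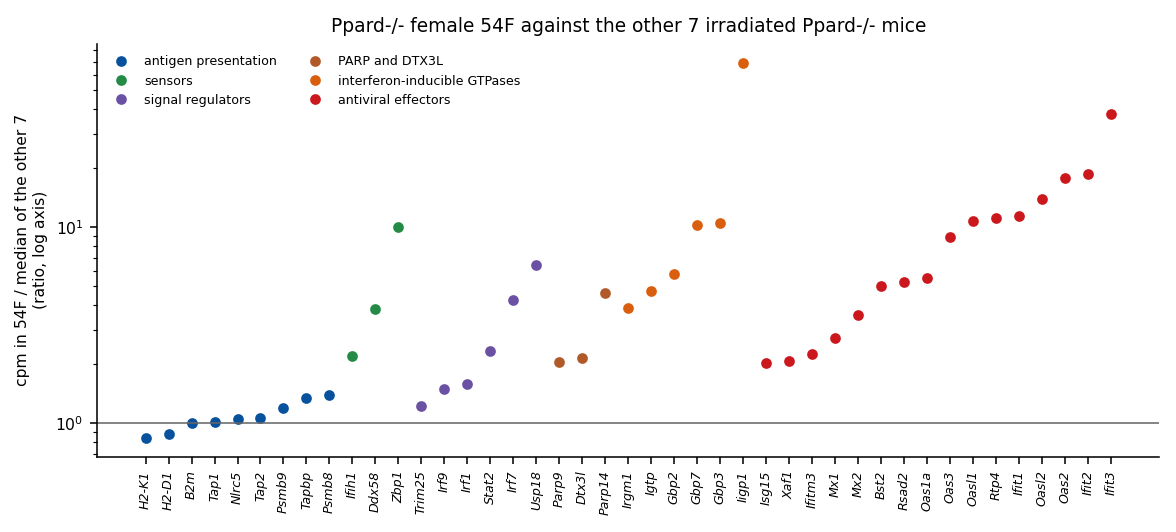
Level in the mouse 54F of each of the 43 members that passed the filter without it, divided by the median of the other 7 irradiated Ppard-/- mice, on a log axis. Antiviral and other interferon-stimulated genes run from 1.22 to 69.1, and the 9 presentation genes stay between 0.84 and 1.39.

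Markers of other cells changed with UV as well, where 71% of all genes tested were called in wild-type and 70.8% in Ppard-/- mice. The summed level of 6 genes of Langerhans cells and MHC class II, whose products mark the antigen-presenting cells of epidermis, had a median of 882 cpm in wild-type controls and 316 cpm after UV, and 623 and 386 cpm in Ppard-/- mice. In wild-type mice 5 of the 6 fell, among them Cd207 by 1.70 on the log2 scale. For 8 T cell genes the medians were 180 and 54.3 cpm in wild-type and 157 and 80.8 cpm in Ppard-/- mice, with 6 lower and 2 higher in each genotype. For 3 genes of plasmacytoid dendritic cells, of which 2 were tested, the medians were 10.4 and 1.37 cpm in wild-type mice, where Ccr9 fell by 3.26 on the log2 scale, Cox6a2 had a change of 0.29 that did not pass and Siglech was not tested. Neutrophil and monocyte genes were 5 higher and 0 lower of 7 tested in wild-type mice, with Ly6g at 0 in the controls. Summed levels of 6 keratinocyte genes had medians of 79730 and 41540 cpm in wild-type mice. Of these 6 genes, 1 rose, 4 fell and 1 did not pass there. Krt14 was higher and Krt1 and Krt10 were lower, and no keratinocyte marker was at 0. The part of these changes in the values of the members was not tested.

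Among all other genes tested, the patterns most like those of the members were ranked by Pearson's r with the mean log2 level of a set over the mice, which share libraries and exposure groups. For the 36 antiviral and other interferon-stimulated genes the highest r over 32 mice was that of Dhx58 (0.876), followed by Steap3 (0.854) and Uba7 (0.827). Without 54F, Dhx58 (0.783) and Oas1g (0.767) led. For the 9 presentation genes the highest were H2-T23 (0.867), Ifi27 (0.859) and Slc25a35 (0.849), and without 54F Ifi27 (0.868), H2-T23 (0.867) and Irgm2 (0.855).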

How the data were processed

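Epidermal RNA of 32 mice was sequenced with a stranded poly(A) kit. The authors deposited raw read counts per gene, 1 file per mouse, and the submitters' processing notes name cutadapt 1.8, STAR 2.5.3a, HTSeq 0.9.1 and GRCm38. Rows that name no gene were left out: reads in no annotated gene were 6.80 to 9.75% of uniquely aligned reads, and entries aligned in more than 1 place, which no gene received, were 31.1 to 38.5% of all entries in a file. Replicates are separate mice. Symbols came from the annotation for 55141 of 55401 identifiers. The members and lists were chosen with earlier results of these data known. The 15546 genes that reached 1 cpm in any mouse were fitted with edgeR 4.0.16 (R 4.3.3, TMM scaling, quasi-likelihood test) over the 8 groups of sex, genotype and exposure, and p-values were adjusted by Benjamini-Hochberg over all of them. The SE of a log2 change is its size divided by the root of its F statistic. Alternatives were DESeq2 1.42.0, limma 3.58.1 (limma-trend), other filters and scalings, and leaving out each mouse. Named with their levels were the members highest in cpm and those changed most by UV in wild-type mice in each role; Tap1, Tap2, Tapbp, Psmb8, B2m, Irf1, Bst2, Isg15, Oas2, Oas3 and Mx2 were added after their values were seen. On simulated data (14942 genes) the fit called 84% of 100 genes changed by a log2 value of 1 and 56% of those changed by 0.5 for UV in wild-type mice, 69% and 34% for the difference in UV response between the genotypes, and 83% and 51% for genotype after UV. Only genes with a mean of at least 1 cpm were changed and 14742 were left unchanged, whereas UV changed 71% of genes in the real wild-type data. These rates therefore do not hold for members under 1 cpm or for so broad a response. A few results are not reported here.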

Additional observations from a re-analysis of the deposited data

Results flagged for a closer look

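Within the 8 groups of 4 mice, 192 sets of 4 values (22 members named with their levels and 2 set means) were searched for a highest or lowest mouse whose gap to the next, divided by the whole range, exceeded Dixon's critical value for 4 samples. There were 19 such values, 9 of them in mouse 54F. Chance marks about 1 in 20 groups, and the sets of values share mice, so they are not independent.

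In 54F, among irradiated Ppard-/- females, the level was 47.5 cpm for Parp14 (next mouse 18.6), 12.5 for Oasl1 (2.18), 14.4 for Irgm1 (4.95), 8.67 for Igtp (2.69), 11.5 for Iigp1 (0.350), 13.2 for Gbp7 (1.88), 19.0 for Zbp1 (2.59) and 43.3 for Irf7 (10.7). The mean log2 cpm of the 36 antiviral and other interferon-stimulated genes was 3.88 in this mouse and 1.78 in the next. The summed levels of the fibroblast markers and of the neutrophil and monocyte markers given in the report were also highest in it among irradiated Ppard-/- mice, the latter mostly through Lyz2, and their part was not tested.

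Among irradiated wild-type females, 57F was highest for H2-K1 at 2324 cpm (next 1868) and for H2-D1 at 1899 cpm (1547). The control females gave 11.5 cpm of Parp14 in wild-type 71F (low, next 14.5), 0.912 cpm of Zbp1 in wild-type 63F (high, 0.296), 1124 cpm of H2-D1 in Ppard-/- 62F (high, 1082) and 3.19 cpm of Irgm1 in Ppard-/- 69F (low, 4.70). Among wild-type males, control 54M was high for Igtp at 9.98 cpm (3.98), irradiated 71M was high for Irf9 at 44.7 cpm (40.8), irradiated 38M was low for Irf7 at 8.51 cpm (10.3), and control 69M was low for the mean of the 36 genes at 1.15 on the log2 scale (1.60).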

How the results depend on the processing

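DESeq2 called 2 members as responding more to UV in Ppard-/- than in wild-type mice (Ddx58, adjusted p = 0.0361, and Iigp1, 0.0415) and 1 as higher after UV in Ppard-/- mice (Iigp1, 0.00868), where edgeR called 0 in each. Over all genes DESeq2 called 841 against 119 by edgeR for the difference in UV response, 1116 against 514 for genotype after UV and 78 against 32 for genotype without UV. The mean log2 change of the 9 presentation genes after UV was -0.36 in wild-type mice and -0.57 without H2-K1 and H2-D1, which have near-identical copies. In Ppard-/- mice the mean was -0.25, with -0.44 without H2-K1 and H2-D1 and -0.13 without Nlrc5. Both H2-K1 and H2-D1 rose after UV, so leaving them out lowers the mean whether or not their counts are accurate. Leaving out each mouse in turn gave 9 to 15 members higher after UV in Ppard-/- mice (14 with all mice, 9 without 54F) and 9 to 19 in Ppard-/- females (18 with all, 9 without 54F). It gave 4 to 8 in wild-type males (5 with all, 8 without 32M), 0 to 1 for the difference in UV response (1 without 52F) and 0 to 2 for genotype after UV (2 without 52F, 1 without the irradiated Ppard-/- females 66F or 74F or the control Ppard-/- male 52M). The changes in Ppard-/- mice of 3 members that did not pass turned sign: Irgm1 ran from -0.13 (without 54F) to 0.32, Iigp1 from -2.06 (without 54F) to 0.78 and Gbp7 from -0.56 (without 54F) to 0.43, with -0.11 for Gbp7 by limma-trend. The cause of these changes was not tested, other than the smaller number of mice. For single genes, 1595 other repeats kept direction and side of the threshold, 53 lost the call and 9 gained it. No paired analysis was possible because the mouse numbers in the labels are animal tags that do not pair mice across groups. A member at 0 in a library has a limit of up to 0.131 cpm, so low members such as Ifi44 and Ifit3b limit what could be seen.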
